A study of Mus musculus with 6 samples.

Results

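Mural cells wrap the vessels of the choroid. Pericytes sit on capillaries and take part in capillary stability, and smooth muscle cells surround arterioles and contract to set blood flow. This report covers 10 genes used as markers of these cells, namely Acta2, Tagln, Myh11, Cnn1, Des, Pdgfrb, Rgs5, Cspg4, Notch3 and Kcnj8. They were taken by gene symbol from the deposited table, which lists 33924 genes, and all 10 were found. The list mixes contractile proteins, which are most abundant in smooth muscle, with surface receptors, a channel and a signalling regulator that are used to mark pericytes. Several of them are also made by other cells, such as desmin by skeletal muscle and PDGFRβ by fibroblasts.

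RPE/choroid of C57BL/6J mice, the retinal pigment epithelium with the vascular layer below it, was sequenced as 6 libraries, 3 from young and 3 from aged mice, with both eyes of a mouse in 1 library. The sample titles put the young mice at 1 to 2 months and the aged mice at 20 to 24 months, while a second age field reads 22 to 24 months for the aged mice and the methods of the study make the young mice slightly older. The labels call the mice male, whereas the methods of the study name both sexes. The study describes these libraries as depleted of ribosomal RNA and then selected for poly(A), and the labels give polyA RNA as the molecule, although their protocol names only the removal of ribosomal RNA and a total RNA kit. The mice are wild type, and no treatment is given for either group.

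Each gene has 1 usable value in the deposited table, the authors' mean normalized count over the libraries of both ages. It has no replicate error, so no difference between genes below can be set against a spread between mice, and young and aged RPE/choroid are not compared here. The means added up to 40816668 over all genes, and the depth of single libraries is unknown. A mean of at least 10 was reached by 18479 genes, with a median of 668. Because long transcripts yield more reads, levels of different genes were mainly compared after division by the length of the longest annotated transcript, in counts per kb, which 17952 of these genes allowed, with a median of 214 per kb. The methods of the study do not make plain whether the counts had been corrected for length already, in which case the plain counts would be the scale for comparing genes, so the main results are given on both scales. In bulk tissue, fewer mural cells and less RNA per cell cannot be told apart.

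All 10 genes were detected, at means between 289 and 45231. Together they held 0.199% of the normalized counts. By count 9 of the 10, all but Cnn1, lay above the median of all genes. On the per kb scale 7 of the 10 did, and 4 of them, Rgs5, Acta2, Tagln and Des, were in the top 10% of genes. From highest to lowest level per kb the order was Rgs5, Acta2, Tagln, Des, Pdgfrb, Kcnj8, Myh11, Cspg4, Cnn1 and Notch3. Rgs5 was 110 times as high as Notch3 per kb, but this ratio was 56.1 by count, 16.7 with the median transcript length and 719 with coding length as the divisor. By count, with no division by length, Des stood above Acta2, Myh11 above Kcnj8 and Notch3 above Cnn1. Whether neighbours in this order differ beyond the spread between mice cannot be said.

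**Figure D1:**
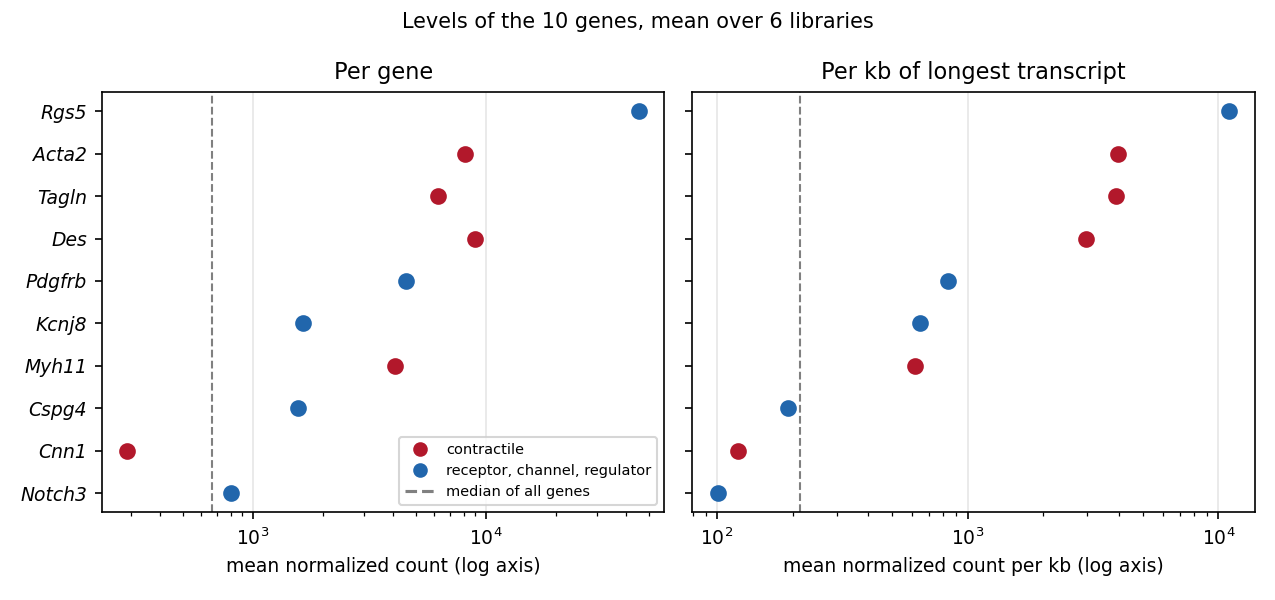
Mean normalized count over the 6 libraries (left) and the same value per kb of the longest transcript (right) for the 10 genes, on log axes, with contractile genes in red and the others in blue. The dashed line is the median of all genes with a mean of at least 10 (668 counts, 214 per kb). There are no error bars because 1 pooled value exists per gene. Cspg4, Cnn1 and Notch3 lie below the line on the right.

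In GRCm38 (GENCODE M21) the contractile genes lie on 4 chromosomes. Acta2 (ENSMUSG00000035783) is at chr19:34241090-34255590 on the minus strand, with 9 exons in its longest transcript, and Myh11 (ENSMUSG00000018830) at chr16:14194535-14291372 on the minus strand, with 41. Tagln (ENSMUSG00000032085) is at chr9:45929619-45936058 on the minus strand and Cnn1 (ENSMUSG00000001349) at chr9:22099216-22109630 on the plus strand, while Des (ENSMUSG00000026208) is at chr1:75360329-75368579 on the plus strand. Rgs5 (ENSMUSG00000026678) is also on the plus strand of chromosome 1, at chr1:169655501-169695813. Pdgfrb (ENSMUSG00000024620) is at chr18:61045150-61085061 and Cspg4 (ENSMUSG00000032911) at chr9:56865033-56899870, both on the plus strand. Notch3 (ENSMUSG00000038146) is at chr17:32120820-32166852 and Kcnj8 (ENSMUSG00000030247) at chr6:142564837-142571614, both on the minus strand.

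Acta2 encodes smooth muscle α-actin, the thin-filament actin of vascular smooth muscle. Its mean was 8082 counts, or 3972 per kb, rank 868 of 17952 genes. Tagln encodes transgelin, an actin-binding protein of the calponin family that is abundant in smooth muscle, and had 6242 counts, or 3914 per kb. On the per kb scale the ratio of Acta2 to Tagln was 1.01, and with coding length as the divisor it was 0.69, so their order rests on the length used. Myh11 encodes the smooth muscle myosin heavy chain and had 4044 counts, which is 617 per kb for a transcript of 6549 bases. Acta2 was thus 6.43 times as high as Myh11 per kb, and 8.85 to 10.5 times with the other lengths, although their counts differed 2.00 times.

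Cnn1, which encodes calponin 1, a regulator of the contractile filaments, had the lowest mean of the 10 genes. Its 289 counts, or 121 per kb, put it at rank 11100 of 17952, below the median gene. Acta2 exceeded it 32.8 times per kb, or 17.0 times with the median transcript length. Of its relatives, Cnn3 was 72.6 times as high as Cnn1 per kb, with 19498 counts, and Cnn2 had 6333 counts. These 2 calponins are made by many cell types. Tagln, by contrast, was 2.49 times as high per kb as its widely expressed relative Tagln2.

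Des encodes desmin, the intermediate filament protein of muscle and of many pericytes. Its mean was 8985 counts, place 2 of the 10 by count, or 2967 per kb, place 4 of the 10. Desmin is also abundant in skeletal muscle, and 9 of 10 skeletal muscle marker genes were at means of 5603 or more. Among them Mylpf, a fast myosin light chain, reached 54081 per kb, and Tnnt3, a fast troponin T, 39379 per kb. Myh4, a fast skeletal myosin heavy chain, was 13.2 times as high as Myh11 per kb. The part of skeletal muscle RNA in the level of Des was not tested.

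Rgs5 encodes a regulator of G-protein signalling that is a widely used pericyte marker. It was the highest of the 10 genes on both scales, with 45231 counts and 11043 per kb. By count it ranked 58 of 18479 genes, and per kb 312 of 17952. It supplied 55.5% of the summed counts of the 10 genes and 45.2% of their summed level per kb. Per kb it exceeded its paralog Rgs4 by 26.0 times, Pdgfrb by 13.2 times and Acta2 by 2.78 times. By count these ratios were 36.2, 9.95 and 5.60, and with coding length, which is short in Rgs5, they were 41.0, 60.7 and 11.7.

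Pdgfrb encodes the receptor through which endothelial PDGF-B recruits and keeps pericytes. It had 4544 counts, or 838 per kb, rank 3758 of 17952. Its level per kb was close to that of Pdgfra, the related receptor that marks fibroblasts (798 per kb, ratio 1.05). By count this ratio was 0.83, and with coding length it was 0.82, so which of the receptors is higher depends on the scale. With the median transcript length as the divisor the ratio was 0.24, because short annotated transcripts lower the median length of Pdgfra. Cspg4, which encodes the proteoglycan NG2 of pericytes and of oligodendrocyte precursors, had 1557 counts on a transcript of 8121 bases, or 192 per kb, just below the median gene. It was above the median of protein-coding genes with transcripts of 6754 bases or more, which was 118 per kb.

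Notch3, the Notch receptor of vascular smooth muscle and pericytes, had 806 counts. Its 100.5 per kb was the lowest level of the 10 genes, at rank 11713 of 17952. Its longest transcript has 8016 bases, and protein-coding genes with transcripts of 6754 bases or more had a median of 118 per kb. Among the Notch receptors Notch2 was 2.58 times as high per kb as Notch3, while Notch3 exceeded Notch4 by 1.18 times and Notch1 by 4.01 times, or 1.92 times with the median transcript length. The median annotated transcript of Notch3 is only 717 bases long, and with that divisor it moved from place 10 to place 5 among the 10 genes and passed Notch2. With coding length it stayed at place 10.

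Kcnj8 encodes Kir6.1, the pore subunit of the vascular ATP-sensitive potassium channel, and Abcc9 encodes its regulatory subunit SUR2. Kcnj8 had 1644 counts and Abcc9 1673. Per kb, Kcnj8 was at 645 and Abcc9 at 223, a ratio of 2.89 that lay between 2.76 and 3.58 over the other lengths used. Both genes therefore had nearly the same count on transcripts of unequal length.

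The 5 contractile genes, Acta2, Tagln, Myh11, Cnn1 and Des, held 47.5% of the summed level per kb of the 10 genes. Without Des, an alternative chosen after the skeletal muscle genes had been seen, the share was 40.2%. With coding length it was 22.4%, because the coding part of Rgs5 is only 543 bases of its 4096-base transcript.

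**Figure D2:**
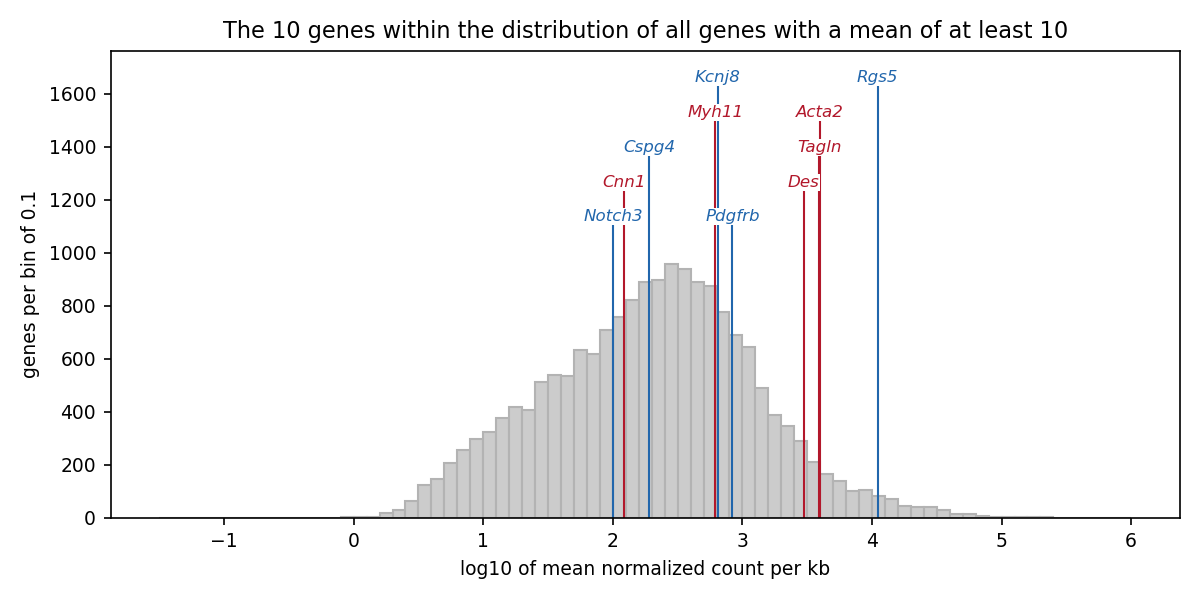
Histogram of log10 mean normalized count per kb for the 17952 genes with a mean of at least 10 and a known length (bins of 0.1), with a vertical line for each of the 10 genes, contractile genes in red and the others in blue. Line heights only separate the names. Rgs5, Acta2, Tagln and Des lie in the right tail, and Notch3, Cnn1 and Cspg4 to the left of the middle.

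The wider mural program was examined through other contractile and pericyte genes. Of 17 further contractile genes, all were at means of at least 10 and 11 were above the all-gene median per kb. The highest were the tropomyosins Tpm1 (15759 per kb) and Tpm2 (15744 per kb) and the calponin Cnn3 (8806 per kb), none of which is confined to smooth muscle. Kcnmb1, the smooth muscle subunit of the calcium-activated potassium channel, was the lowest at 34.0 counts, or 8.11 per kb. Of 15 further pericyte genes, 11 were above the all-gene median, led by Vtn (vitronectin, 3390 per kb), Esam (1364 per kb) and Mcam (1067 per kb). Esam and Mcam are also endothelial adhesion genes, and the part of other cells in the level of Vtn was not tested. The median of this list was 294 per kb, and its lowest gene was Atp13a5 at 86.0 counts, or 18.7 per kb.

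Among the ligands that act on these receptors, Pdgfb had 1143 counts and Pdgfrb was 2.16 times as high per kb. That ratio was 3.98 by count, 1.03 with median transcript length and 0.87 with coding length. Which of the 2 genes is higher per kb thus depends on the length. Pdgfd, a further ligand of the same receptor, was at 675 per kb and Pdgfa, a ligand of PDGFRα, at 653 per kb. Of 12 Notch ligands, receptors and targets other than Notch3, 5 were above the all-gene median. The highest were the targets Hes1 (1375 per kb) and Hey1 (403 per kb) and the ligand Jag1 (303 per kb), and Jag1 was 3.01 times as high as Notch3 per kb but 0.43 times with the median transcript length.

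Serum response factor (SRF) and the coactivators of the myocardin family switch on contractile genes. Srf had 1119 counts, or 428 per kb, and the coactivators Mkl2 and Mkl1 were at 136 and 67.2 per kb. Myocd, which encodes myocardin itself, had 19.2 counts, the lowest of the 4 factors, and Srf exceeded it 114 times per kb, 58.2 times by count and 288 times with the median transcript length.

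SRF binds the CArG box, an element of 10 bases. Promoter windows from RefSeq (GRCm38.p6), 250 bases before to 50 bases after a gene's start, were found for 7 of the 10 genes, namely Acta2, Cnn1, Des, Rgs5, Cspg4, Notch3 and Kcnj8. An exact box was in 0 of these 7 genes and in 1.81% of the 27025 genes with a window. With 1 letter of the A/T core free, a box was in 1 of the 7 genes, Acta2, against 11.3% of all genes. The general pattern of the box, though not each match, reads the same on both strands, so 1 strand was searched. Both Acta2 matches are shown because they are the only ones in the 7 windows searched, in capitals within 30 bases of the minus strand of chromosome 19, at bases -84 to -75 and -34 to -25 from the RefSeq start. A match is a description of letters, and whether SRF binds there was not examined.
Acta2, chr19:34255438-34255467: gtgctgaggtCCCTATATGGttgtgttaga
Acta2, chr19:34255388-34255417: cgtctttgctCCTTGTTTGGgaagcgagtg

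Counts can be split between genes that share sequence or overlap. Of all words of 50 bases in the longest transcript, 99.6% or more in each of the 10 genes were found in no other annotated gene. Acta2 shared 7 such words with Actg1, a cytoskeletal actin at 48346 counts. Myh11 shared 26 words with Myh9, a nonmuscle myosin at 6725 counts, and 16 with its relative Myh10. Notch3 shared 7 words, a run of 56 bases, with the predicted gene Gm30232. The longest runs shared by Acta2 and Myh11 with genes of their families are printed below. They are 56 bases of Acta2 (chr19:34243342-34243397, minus strand) and 65 bases of Myh11 (chr16:14232631-14232695, minus strand). Both runs are shorter than the reads described in the methods of the study. Only a read cut short by trimming could therefore fall wholly inside either run. Only exact matches of 50 bases were searched, so counts shared through shorter or inexact matches were not tested.
Acta2 and Actg1: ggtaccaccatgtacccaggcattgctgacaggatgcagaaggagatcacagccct
Myh11 and Myh9: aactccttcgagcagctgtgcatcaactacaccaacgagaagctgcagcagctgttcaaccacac

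Overlap on the opposite strand concerned 3 genes. The antisense gene Gm48529 covers 62.4% of the exonic bases of Tagln, and the protein-coding gene Pcsk7 (1069 counts) 5.43%. The level of Gm48529 was not examined. Gm15179 (27.0 counts) covers 5.86% of Des and Gm17276 (8.95 counts) 6.03% of Notch3. The library kit keeps strand, but whether strand was used in quantification is not given in the sources used here. Whether reads of Tagln and of its antisense partner were kept apart is therefore unknown.

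Other actins give a scale for Acta2. Skeletal Acta1 was 7.06 times as high as Acta2 per kb, whereas Acta2 was 47.7 times as high as the enteric smooth muscle actin Actg2 (111 counts). The cytoskeletal actins Actb and Actg1 were at 14294 and 24767 per kb, both above Acta2. Cardiac Actc1 was at 854 per kb. The other 5 cardiac muscle markers were low, between 2.53 and 71.9 per kb.

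Lists of markers for other cells place the 10 genes in this tissue. The median of the 10 genes was 742 per kb, against 947 per kb for 10 endothelial markers, led by Cldn5 (4872 per kb) and Emcn (2251 per kb). It was 24629 per kb for 10 RPE markers, led by Ttr and Rgr, and 6703 per kb for 6 fibroblast markers, led by Dcn and Lum. The median was 10472 per kb for skeletal muscle and 4401 per kb for 7 rod genes led by Rom1 and Gnat1. It was 20457 per kb for melanocyte genes led by Dct and Pmel, which pigmented RPE also expresses. Below them in that list, Tyrp1 was at 39758 per kb, Mitf at 1157, Sox10 at 452 and Kit at 61.2. The part of RPE in these melanocyte list levels was not tested. The median was 1207 per kb for macrophages led by Lyz2 and Cd68, and 771 per kb for Schwann cells led by S100b and Pmp22. By count, the median of the 10 genes (4294) was instead above those of the endothelial (4018), macrophage (3472) and Schwann cell (3648) markers, so the order of these 4 lists depends on the scale. Thus the RPE label of the samples was met by 9 of 10 RPE markers above the all-gene median, while rod and skeletal muscle RNA was present as well. The part of these cells in the levels of the 10 genes was not tested.

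**Figure D3:**
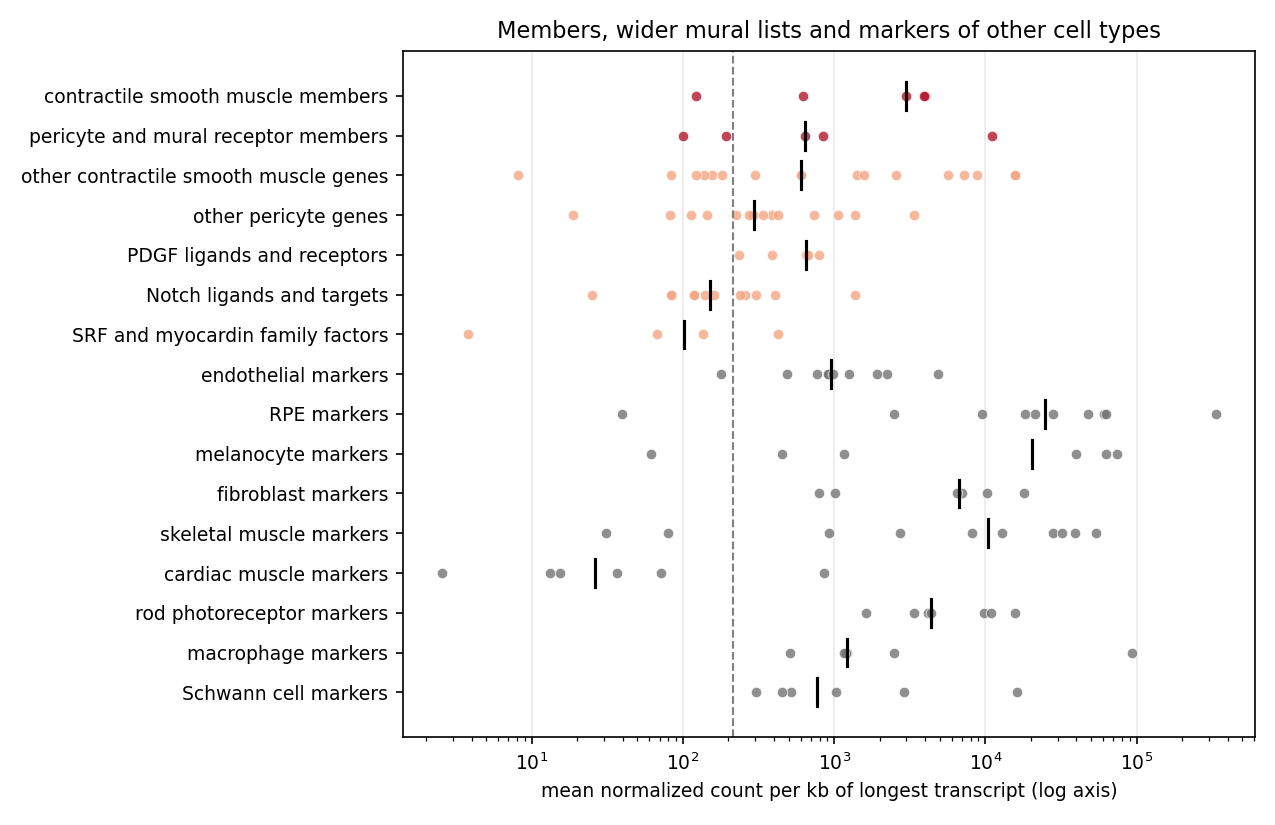
Mean normalized count per kb (log axis) of each gene in each list: the 10 genes in red, wider mural lists in orange, markers of other cell types in grey. Short black bars are list medians and the dashed line is the median of all genes (214 per kb). The 10 genes overlap the endothelial markers, and most RPE, rod and skeletal muscle markers lie to the right of all of them but Rgs5.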

How the data were processed

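Libraries came from RPE/choroid of 3 young and 3 aged mice. In the methods of the study, the authors used BBDuk to trim reads, STAR with an Ensembl GRCm38 transcript annotation to map them and Sailfish to obtain TPM values, which were then made into normalized counts scaled to library totals, and DESeq2 to compare the ages. Whether DESeq2 was given read counts or these rescaled values is not plain from the sources used here. The deposited table gives for each gene a signal, the authors' mean normalized count over all 6 libraries. Its other columns hold the authors' own comparison of the age groups (fold change, standard error, statistic, p-value, adjusted p-value) and were not used. The planned edgeR test of age needed values per library and was not run.

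Levels per kb used the longest transcript of GENCODE M21, matched to 97.1% of the 18479 genes with a mean of at least 10, of which 1510 through older symbols. The methods do not say whether lengths had already been divided out, so the scaling of the counts with length was checked: the median count of protein-coding genes was 574 in the shortest and 1051 in the longest of 10 length bins, which does not settle the point. The median per kb fell from 594 in the shortest to 118 in the longest bin, so long genes tend to rank lower per kb. Python 3.11.15, numpy 2.4.6, pandas 2.3.3 and matplotlib 3.10.9 were used, and the steps were tested on simulated data. The 10 genes and the lists were chosen with earlier results of these data known. Named were the 10 genes, the 3 highest of each wider list and the 2 highest of each list of another cell type, and the actins. A further gene of the rod list is not reported here. Cnn2, Tagln2, Kcnmb1, Atp13a5, Rgs4, Abcc9, Pdgfb, Myocd, Myh4, Myh9 and Pcsk7 were named after their values were seen. So were Tyrp1, Mitf, Sox10, the other Notch receptors, the antisense genes and those in the closing section.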

Additional observations from a re-analysis of the deposited data

How the results depend on the processing

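No paired analysis was possible because only 1 pooled mean per gene was used. The age comparison, its edgeR and DESeq2 fits, another filter, the replicate block and leaving out each replicate could not be run on such means. The number of the 10 genes in the top 10% of genes was 4 by count and 4 per kb, and between 4 and 6 over the filters and lengths tried. The share of the 5 contractile genes in the summed level, 47.5%, was 52.6% with the median transcript length, 22.4% with coding length, 33.9% with no division by length and 40.2% without Des, the last chosen after seeing the data. A CArG box was in 0 of the 7 promoters searched exactly and in 1 with 1 mismatch.

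Summed levels per kb moved with each alternative, and no replicate error exists to set this against. Without the highest gene of each list the sum was 13367 for the 10 genes, 9641 for endothelial, 252017 for RPE, 104223 for melanocyte, 25434 for fibroblast, 124256 for skeletal muscle, 139.7 for cardiac muscle, 34246 for rod, 6578 for macrophage and 5196 for Schwann cell markers. With the median transcript length it was 45798, 19438, 1111759, 394218, 142828, 279661, 1769, 101399, 106011 and 29067 in the same order. With the longest transcript it was 24410, 14513, 587250, 178517, 43476, 178336, 994, 49838, 99203 and 21355. The 10 genes summed to more than the endothelial markers in all 3 settings. Without values per library, depth and counting error per library are unknown.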

Other observations

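Within the marker lists, single genes lay far below the rest. Tnnc2, the troponin C of fast skeletal muscle, was at 30.9 per kb beside 32148 per kb for Tnni2 and 39379 per kb for Tnnt3, which encode its partners in the same complex. Best1, a chloride channel gene of RPE, was at 39.3 per kb beside 61154 per kb for Rpe65. Kit was at 61.2 per kb, where the median of the melanocyte list was 20457 per kb. Ttn, of the skeletal muscle list, was at 79.2 per kb, but had 8461 counts on a transcript of 106824 bases. Cdh5 was at 179 per kb, the lowest of the endothelial markers, the others of which were between 486 and 4872 per kb. These genes were picked after their values were seen, and whether the low values of Cnn1 and Notch3 belong with them was not tested.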
